A study of Mus musculus with 2 samples.

Results

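The cells described here are colon T cells of the CD8 lineage that carried Gzmk RNA and no Mki67 RNA, 1158 of the 5333 cells kept in the study. A cell was placed in the CD8 class when it had at least 1 unique molecular identifier (UMI, one counted RNA molecule) of Cd8a or Cd8b1 and 0 of Cd4. Of 2391 such cells, 1698 had 0 UMIs of Mki67, a gene of dividing cells, and the 1158 with at least 1 Gzmk UMI are called Gzmk-positive below. They are set against the other 540, called Gzmk-negative, which had 0 Gzmk and 0 Mki67 UMIs.

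The cells came from the colons of Balb/c mice that had been lethally irradiated and given 5000000 bone marrow cells of B6 (C57BL/6) donors together with B6 splenocytes that held 800000 alpha beta T cells. Such a graft causes graft-versus-host disease, in which donor T cells attack the tissues of the recipient. On day 21 the colons of 5 mice were pooled, and donor T cells were sorted as H2-Kb+ and TCR beta+, so both classes share graft, host, time and sort. RNA was read from 1 droplet library made with 10x Genomics 5′ reagents, and the T cell receptor (TCR) from 1 further library of that cDNA. The pool is therefore 1 sample: no test across animals was possible, no p-value is given, and all intervals are 95% intervals that cover counting error only. The sample titles name CD4 T cells, whereas 44.8% of the kept cells were in the CD8 class.

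Granzyme K is a serine protease stored in the granules of killer lymphocytes. CD8 T cells that express it are best known as memory-like cells, with the T-box factor Eomes and the chemokine Ccl5, that accumulate in inflamed and aged tissues. Granzyme B, which enters target cells through pores made by perforin and triggers their death, marks the fully armed killer cell, and the 2 granzymes are often read as signs of different CD8 states. Each T cell clone is recognised by the nucleotide sequence of its TCR beta (TRB) and alpha (TRA) chains at the third complementarity-determining region (CDR3), where the gene segments were joined.

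The sequences below are the CDR3s of the 4 largest clones, which held 43.6% of the Gzmk-positive cells with a known clone, and of clones 7 and 14, in which Gzmk-positive cells were in the minority. Clones are numbered by their size among the 1698 cells. The bases run 5′ to 3′, and capitals mark the stretch, counted from the first base, that is identical between clones 7 and 14. The TRB locus is on chromosome 6 and the TRA locus on chromosome 14. Clone 3 had a pair of productive TRA chains.
Clone 1 TRB (TRBV13-1, TRBJ1-3): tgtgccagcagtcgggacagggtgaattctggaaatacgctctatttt
Clone 1 TRA (TRAV7-5, TRAJ45): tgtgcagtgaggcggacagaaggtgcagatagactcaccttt
Clone 2 TRB (TRBV4, TRBJ2-7): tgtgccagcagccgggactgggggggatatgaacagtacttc
Clone 2 TRA (TRAV10N, TRAJ13): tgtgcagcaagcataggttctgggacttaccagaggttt
Clone 3 TRB (TRBV13-1, TRBJ2-5): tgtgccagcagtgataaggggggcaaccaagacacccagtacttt
Clone 3 TRA (TRAV8-1, TRAJ22): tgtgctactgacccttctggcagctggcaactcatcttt
Clone 3 TRA (TRAV6D-7, TRAJ35): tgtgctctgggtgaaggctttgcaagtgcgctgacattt
Clone 4 TRB (TRBV12-1, TRBJ1-2): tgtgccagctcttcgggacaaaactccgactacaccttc
Clone 4 TRA (TRAV14-1, TRAJ16): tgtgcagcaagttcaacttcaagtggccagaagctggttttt
Clone 7 TRB (TRBV5, TRBJ2-7): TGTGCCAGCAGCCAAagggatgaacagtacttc
Clone 14 TRB (TRBV5, TRBJ1-5): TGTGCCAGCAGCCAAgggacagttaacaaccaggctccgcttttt
Clone 7 TRA (TRAV16N, TRAJ22): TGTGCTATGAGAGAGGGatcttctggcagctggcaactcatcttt
Clone 14 TRA (TRAV16N, TRAJ4): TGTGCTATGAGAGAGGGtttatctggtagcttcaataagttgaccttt

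Gzmk was found in many of the non-dividing CD8 cells, in a share that depended on depth and on the number of UMIs required. Gzmk-positive cells made up 68.2% of the 1698 (Clopper-Pearson interval 65.9 to 70.4) and 21.7% of all kept cells. Detection of a gene follows depth, and the median was 4606.5 UMIs in Gzmk-positive cells and 3857 in Gzmk-negative cells. With every cell thinned to 2000 UMIs, which no kept cell fell short of, 49.4% of the 1698 had a Gzmk UMI (47.0 to 51.8), and 48.4% had 2 or more UMIs unthinned. In cycling CD8 class cells this share was 75.8% of 693 cells unthinned and 44.9% thinned, at a median of 8641 UMIs. As a measure of free RNA, 3.66% of 164 CD4 class cells with Il17a, Il17f, Il22 or Il23r UMIs had a Gzmk UMI (2.44% thinned, at a median of 5853.5 UMIs unthinned). In 106 barcodes with 3 or more macrophage genes the share was 36.8% (20.8% thinned), and 88 of these barcodes also had a Cd3e or Trbc UMI. Of these barcodes, 39 were in the CD8 class, and 15 were Gzmk-positive cells of the non-cycling CD8 class. The level of Gzmk per 10000 UMIs was 6.37 in Gzmk-positive cells (exact Poisson interval 6.17 to 6.57), 3.81 in cycling CD8 class cells, 1.05 in the CD4 class and 0.164 in the cells with Th17 genes.

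Most Gzmk-positive cells held few Gzmk UMIs. The median was 2, with quartiles of 1 and 4 and a highest value of 17. Cells just inside the threshold, with 1 UMI, numbered 336 or 29.0% of the 1158, while 275 had 5 or more and 36 had 10 or more. On thinned cells, 72.5% of the 1158 still had a Gzmk UMI. A count of 0 Gzmk UMIs at these depths does not show that a cell lacked Gzmk RNA.

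The rule fixed the Cd8 and Cd4 genes, so the label was checked on others. All 1158 cells had a UMI of Cd3d, Cd3e or Cd3g, chains of the T cell receptor complex. The 12 CD4 helper genes summed to 5.03 UMIs per 10000 in Gzmk-positive and 5.25 in Gzmk-negative cells, and 2923 of the 2977 UMIs in Gzmk-positive cells were of Ctla4, an inhibitory receptor that activated CD8 cells also express. At least 1 gene of this list was found in 896 Gzmk-positive cells and 2 or more in 28, and 22 had Cd40lg. Barcodes with 2 or more genes of another cell type's list made up 3.54% of Gzmk-positive and 3.52% of Gzmk-negative cells. Adgre1 of the macrophage list, Cd79a, Ms4a1, Krt20, Col3a1, S100a8, S100a9, Trdc and Ncr1 were at 0 UMIs in both classes. Other genes of these lists were found. At least 1 macrophage gene was in 246 Gzmk-positive and 98 Gzmk-negative cells. At least 1 gene of the natural killer (NK) cell list, which holds Eomes, was in 351 and 99. Cd68 of the macrophage list was higher in Gzmk-positive cells, at a log2 ratio of 0.83, while Cd74 and H2-Aa were lower. The 8 macrophage genes, Cd74 and H2-Aa among them, summed to 0.976 UMIs per 10000 in Gzmk-positive cells and 1.81 in Gzmk-negative cells. Of the 422 UMIs of this list in Gzmk-negative cells, 162 of Cd74 and 67 of H2-Aa lay in 1 barcode. This barcode, without a productive TRB chain, held 69.5% to 90% of that class's UMIs of Il1b, Cd74, H2-Aa, H2-Ab1 and H2-Eb1. No result is drawn from those 5 genes or from the macrophage sum.

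Across the transcriptome, the classes were alike for most genes. Of 8170 genes that reached 50 UMIs in the 2 classes together, 190 (2.33%) were higher in Gzmk-positive cells, by a ratio of at least 1.5 with an interval above 1, and 259 (3.17%) were lower, by a ratio of at most 1/1.5 with an interval below 1. The median log2 ratio was 0.01. Levels are UMIs summed over a class per 10000 UMIs of that class, ratios are Gzmk-positive over Gzmk-negative with an exact conditional binomial interval, and higher and lower in counts of genes mean past these limits.

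**Figure D1:**
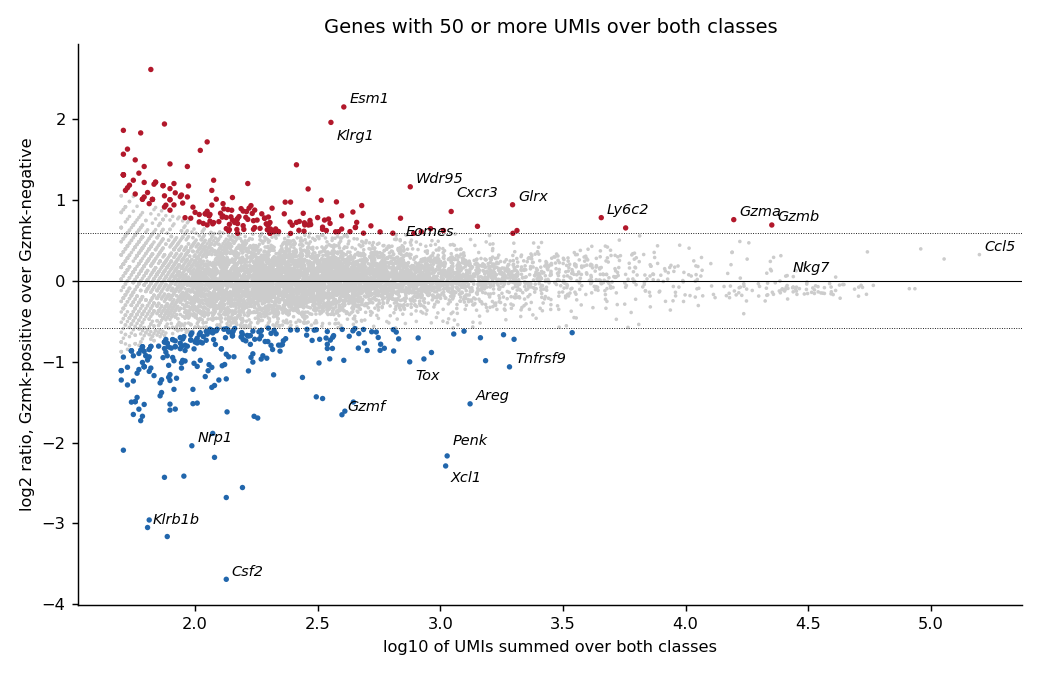
Each point is a gene with at least 50 UMIs, placed by the log10 of its UMIs over both classes (horizontal axis) and the log2 ratio of Gzmk-positive over Gzmk-negative cells (vertical axis), with the 1.5-fold limits dotted, the 190 higher genes red, the 259 lower genes blue and the rest grey. Esm1 and Klrg1 stand well above the limit, Gzma and Gzmb are higher at the far right, and Csf2 is lowest at -3.69 (-0.03 in clones that held both states).

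The markers that often accompany Gzmk were higher to very different degrees. Eomes, the T-box factor of memory and Gzmk-expressing CD8 cells (chr9:118478212-118486132), stood at 0.944 UMIs per 10000 in Gzmk-positive cells and 0.552 in Gzmk-negative cells, a ratio of 1.71 (1.41 to 2.09). On thinned cells, 14.9% of Gzmk-positive cells had an Eomes UMI (12.9 to 17.1), against 8.52% of Gzmk-negative cells (6.30 to 11.2). Ccl5, a chemokine that draws T cells and myeloid cells, was abundant in both classes, at 203 and 162 UMIs per 10000 in Gzmk-positive and Gzmk-negative cells, and its ratio of 1.25 (1.24 to 1.27) was below the limit. Cd27, a costimulatory receptor of memory cells, was likewise near equality, at 2.03 in Gzmk-positive and 1.68 in Gzmk-negative cells (ratio 1.21, 1.08 to 1.36). Of these markers only Eomes passed the limits, and its RNA was caught in a minority of the cells.

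Gzmk-positive cells carried more granzyme B and granzyme A RNA than Gzmk-negative cells. Gzmb, on chromosome 14 (56258838 to 56262260), stood at 30.5 UMIs per 10000 in Gzmk-positive cells and 18.9 in Gzmk-negative cells, a ratio of 1.61 (1.56 to 1.67), and was found in 79.7% and 57.2% of thinned cells of these classes. Gzma, a tryptase of killer granules, stood at 21.5 in Gzmk-positive and 12.7 in Gzmk-negative cells (ratio 1.69, 1.62 to 1.76), in 36.6% and 18.5% of thinned cells. Of 16 cytotoxic granule genes measured, 2 were higher (Gzma and Gzmb), 1 was lower (Gzmf), and the list's median log2 ratio was 0.09.

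The rest of the killing machinery was close between the classes. Prf1, perforin, stood at 1.95 in Gzmk-positive and 1.63 in Gzmk-negative cells, a ratio of 1.198 (1.07 to 1.35). Fasl, the death ligand of Fas, had a ratio of 1.21 (1.10 to 1.33) and Nkg7, a granule membrane gene, of 1.05 (1.02 to 1.07). Gzmf was lower at a ratio of 0.317 (log2 ratio 0.076 with 1 cell per clone and class), but 1 cell held 64.5% of its UMIs in Gzmk-negative cells, and it belongs to a cluster of near-identical granzyme genes between which reads can be split.

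**Figure D2:**
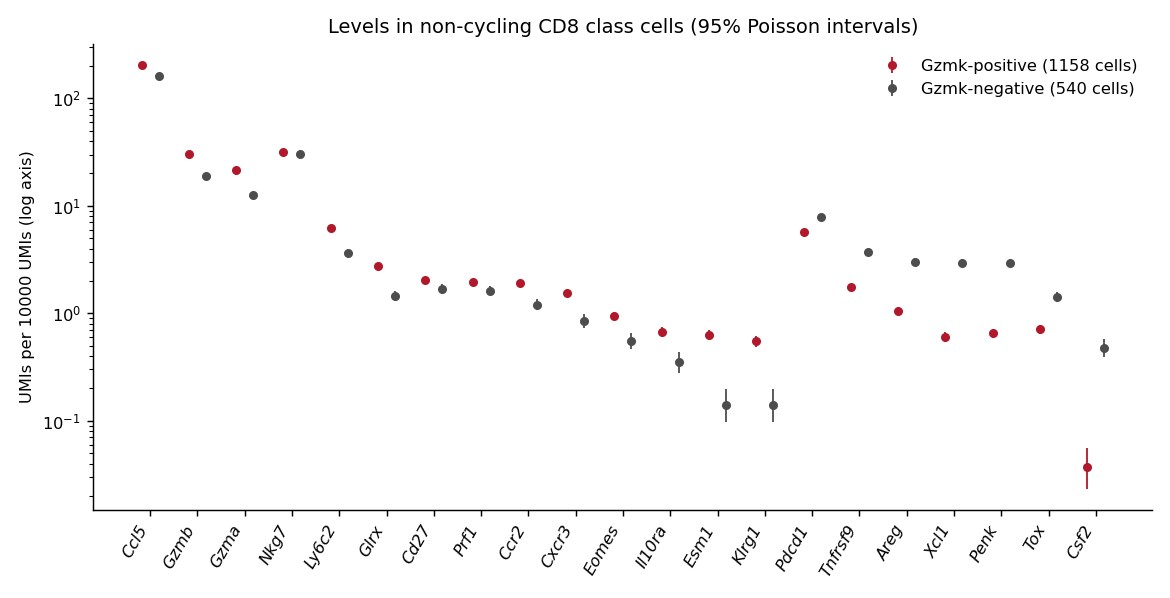
Levels of 21 genes in UMIs per 10000 (vertical log axis) for the 1158 Gzmk-positive cells (red, left of each pair) and the 540 Gzmk-negative cells (grey), with 95% Poisson intervals. Granzyme, migration and memory genes on the left lie higher in Gzmk-positive cells, by small steps for Ccl5, Nkg7, Cd27 and Prf1, and Pdcd1, Tnfrsf9, Areg, Xcl1, Penk, Tox and Csf2 on the right lie lower.

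Esm1 and Klrg1 had the highest ratios of all genes with a sum of 100 or more UMIs. Esm1, which encodes the secreted proteoglycan endocan, had 371 UMIs in Gzmk-positive and 33 in Gzmk-negative cells, or 0.626 and 0.141 per 10000, a ratio of 4.43 (3.10 to 6.54). Klrg1, an inhibitory receptor of effector cells that binds cadherins (chr6:122270596-122282882), had 325 and 33 UMIs in these classes, a ratio of 3.88 (2.71 to 5.74). On thinned cells, Klrg1 was found in 8.12% of Gzmk-positive and 1.48% of Gzmk-negative cells. Further genes among the 12 highest by the bound of the interval nearest 1 were Glrx, a glutaredoxin, at 1.92 (1.70 to 2.16), Anxa1, a phospholipid-binding annexin, at 2.20 (1.59 to 3.10), and the collagen receptor Lair1 at 3.83 (1.76 to 9.89). Wdr95 was at 2.24 (1.83 to 2.76) and Iqce at 3.06 (1.67 to 6.13). Nmral1 had the highest ratio, 6.11 (2.27 to 23.1), from 62 UMIs in Gzmk-positive and 4 in Gzmk-negative cells.

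Esm1 and Gzmk overlap in the GENCODE annotation. Gzmk lies on the minus strand of chromosome 13 and its annotated span (chr13:113171608-113225908, GENCODE, mm10) contains Esm1 on the plus strand (chr13:113209659-113218098), so without a statement that counting used strand, reads of the pair cannot be told apart with certainty. Gzma lies 70.6 kb away on the same strand as Gzmk (chr13:113093825-113100981). Of 8 further genes of that depth within 1500 kb, Slc38a9, a lysosomal amino acid transporter 433 kb away, was higher at 1.84 (1.18 to 2.99). Snx18, Arl15, Ndufs4, Il6st, Map3k1, Dhx29 and Skiv2l2 had ratios of 0.960 to 1.22 and passed neither limit.

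The promoters of Gzmk and its neighbour Gzma are shown because Gzma was higher in cells chosen by Gzmk and because Eomes, which was higher too, binds T-box sites. The sequences are the 250 bases before the start from RefSeq (GRCm38.p6), 5′ to 3′ on the gene's strand, with capitals for matches to the T-box core AGGTGT or the Runx motif TGTGGT on either strand. The Gzmk window lies at chr13:113180966-113181215 (minus strand), before a RefSeq start that is inside the longer GENCODE span and from which Esm1 lies outside Gzmk, and the Gzma window at chr13:113100982-113101231 (minus strand).
Gzmk: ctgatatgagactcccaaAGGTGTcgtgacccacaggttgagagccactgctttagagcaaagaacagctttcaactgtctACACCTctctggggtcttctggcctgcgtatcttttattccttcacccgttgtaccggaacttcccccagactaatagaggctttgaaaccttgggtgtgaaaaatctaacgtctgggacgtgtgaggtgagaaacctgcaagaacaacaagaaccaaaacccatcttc
Gzma: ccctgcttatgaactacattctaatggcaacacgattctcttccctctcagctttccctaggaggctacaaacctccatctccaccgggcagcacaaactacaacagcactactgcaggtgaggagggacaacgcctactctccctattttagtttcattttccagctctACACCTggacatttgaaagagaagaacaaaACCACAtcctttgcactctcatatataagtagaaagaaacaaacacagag
The Gzmk window held 2 matches to the T-box core, on opposite strands, and the Gzma window held 1 match to each motif. Of 32851 promoter windows of the same length, 11.8% held AGGTGT and 14.05% held TGTGGT. The Gzmb window held 2 Runx matches and the Esm1 window none of either motif. The 8-base form AGGTGTGA, which contains the core and was in 1.12% of windows, was in none of these 4. A match is a run of letters and not a measured binding site, and binding by Eomes was not tested.

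Several receptors for migration into inflamed tissue were higher. Of 10 chemokine receptor genes, 3 were higher, Cxcr3 and Ccr2 among them, and 3 were lower, Ccr8, Ccr7 and Ccrl2 (median log2 ratio -0.18). Cxcr3, the receptor for interferon-induced chemokines, stood at 1.53 in Gzmk-positive and 0.848 in Gzmk-negative cells, a ratio of 1.81 (1.55 to 2.12). Ccr2, a receptor that guides cells to inflamed tissue, had a ratio of 1.59 (1.40 to 1.82). Ccr7, which guides cells to lymph nodes, was at 0.270 (0.183 to 0.396), with 48 UMIs in Gzmk-positive and 70 in Gzmk-negative cells, but its log2 ratio was 0.085 in clones that held both states. Ccrl2 turned to 0.31 with 1 cell per clone and class. Of 17 tissue residency genes, 1 was higher (Zfp683, from 45 and 8 UMIs in Gzmk-positive and Gzmk-negative cells, and at a log2 ratio of -0.11 with classes set on thinned cells) and 4 were lower (Ahr, Hic1, Gpr34 and Cd9).

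The memory genes split. Of 18 memory and recirculation genes, 3 were higher and 2 lower, with a median log2 ratio of 0.01. Ly6c2, a surface protein of memory and effector CD8 cells with a close paralog, stood at 6.22 in Gzmk-positive and 3.62 in Gzmk-negative cells, a ratio of 1.72 (1.59 to 1.85). S1pr1, the receptor by which T cells leave tissue, was at 1.63 (1.25 to 2.16). Bcl2, a survival factor, was lower at 0.548 (0.467 to 0.643). Tcf7, the factor of self-renewing memory cells, was at 0.878 (0.692 to 1.12), in 6.91% of Gzmk-positive and 7.41% of Gzmk-negative thinned cells. Il7r, the IL-7 receptor chain, was at 0.795 (0.727 to 0.871) and did not pass the limit. Of 16 effector fate genes, Klrg1 was higher and Zeb2, Irf8 and Ikzf2 were lower, at ratios of 0.512, 0.561 and 0.608. Il10ra, a chain of the IL-10 receptor, was higher at 1.90 (1.498 to 2.45), and Il4ra, of the IL-4 receptor, was lower at 0.613 (0.531 to 0.708).

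Some genes of chronic stimulation and of recent activation were lower. Tox, the chromatin factor of exhausted T cells (chr4:6686353-6991557), stood at 0.708 in Gzmk-positive and 1.42 in Gzmk-negative cells, a ratio of 0.499 (0.431 to 0.578), and 3 of 11 inhibitory receptor and Tox genes were lower (Tox, Tox2 and Cd244), with none higher. Pdcd1, which encodes PD-1, was at 5.69 in Gzmk-positive and 7.92 in Gzmk-negative cells (0.719, 0.679 to 0.761), and Lag3 was at 0.716, both above the limit for lower. Tigit was at 1.11 (1.04 to 1.18). Of 13 costimulatory receptors, Tnfrsf9 (4-1BB), Tnfrsf4 (OX40) and Crtam were lower, with Tnfrsf9 at 0.478 (0.437 to 0.524) and Tnfrsf4 at 0.504 (0.455 to 0.559). Of 10 early TCR genes, 4 were lower (Nr4a2, Nr4a3, Myc and Cd83) and none higher, with a median of -0.51, and Nr4a2 was at 0.641 (0.598 to 0.687).

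Several secreted mediators were lower as well, in part through few cells. Of 13 cytokine genes, 6 were lower and 1, Il10, was higher, from 70 and 13 UMIs in Gzmk-positive and Gzmk-negative cells, and at a log2 ratio of -0.16 with 1 cell per clone and class. Areg, the growth factor amphiregulin, stood at 1.05 in Gzmk-positive and 3.01 in Gzmk-negative cells (0.348, 0.312 to 0.389), in 6.48% and 15.7% of thinned cells. Csf2, which encodes GM-CSF, had 22 UMIs in Gzmk-positive and 112 in Gzmk-negative cells, a ratio of 0.0775 (0.0467 to 0.123). In clones that held both states its log2 ratio was -0.03, against -3.69 over all cells. Its top cell held 31.8% of the UMIs in Gzmk-positive cells and 24.1% in Gzmk-negative cells. Ifng, interferon gamma, was at 0.814 (0.737 to 0.899) and passed neither limit.

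Among 6 chemokines, 4 were lower (Ccl3, Ccl1, Xcl1 and Cxcl10). Ccl1 had 47 UMIs in Gzmk-positive and 109 in Gzmk-negative cells, and 1 cell held 54.1% of those 109. Xcl1, which attracts cross-presenting dendritic cells, stood at 0.606 in Gzmk-positive and 2.96 in Gzmk-negative cells (0.205, 0.1796 to 0.233), with 29.9% of the UMIs of Gzmk-negative cells in 1 cell. Penk, the enkephalin precursor, was at 0.223 (0.196 to 0.253), with 32.9% of those UMIs in 1 cell. The shares of cells differed in the same direction: on thinned cells Xcl1 was found in 5.09% of Gzmk-positive (3.90 to 6.52) and 12.04% of Gzmk-negative cells (9.41 to 15.1). Of 9 genes of the killer lectin receptor list, 4 were lower (Klrc2, Klrb1c, Fcer1g and Tyrobp) and none higher. With 1 cell per clone and class, Fcer1g and Tyrobp turned to log2 ratios of 2.02 and 1.75. Klrg1 and Klrb1b, killer lectin receptor genes outside that count, were at ratios of 3.88 (2.71 to 5.74) and 0.121 (0.0629 to 0.219).

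**Figure D3:**
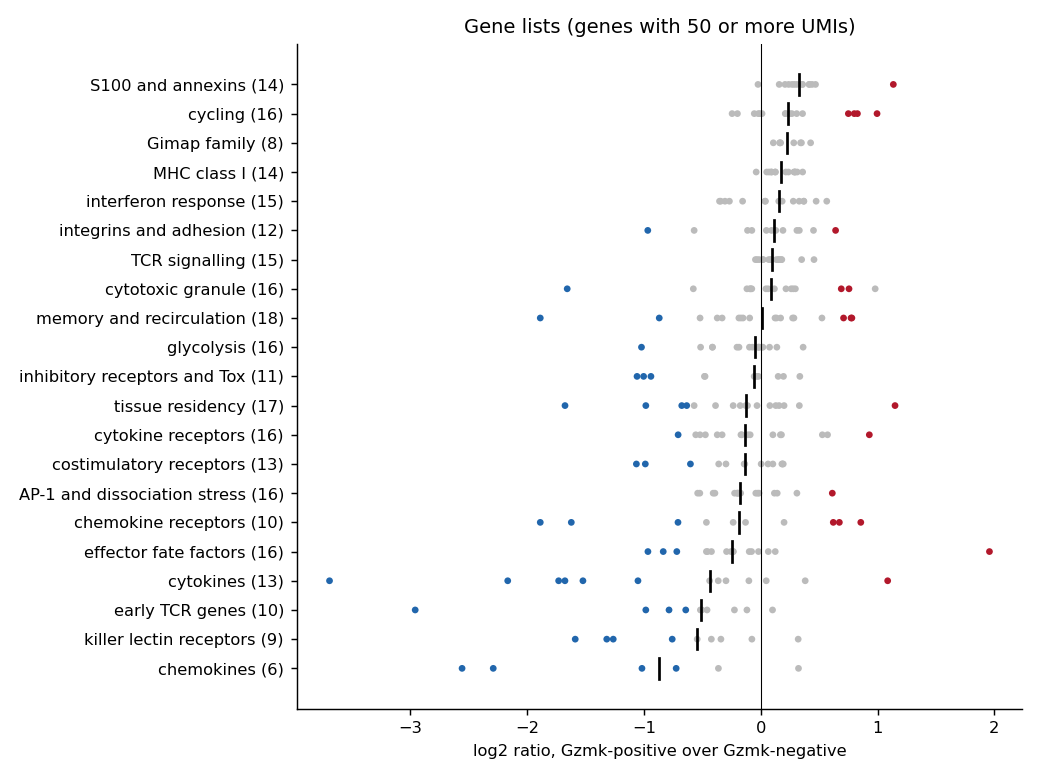
Log2 ratio of Gzmk-positive over Gzmk-negative cells (horizontal axis) for the genes of 21 lists with at least 5 measured genes, with the number measured in brackets, higher genes red, lower genes blue, the rest grey and the list median as a black bar. Chemokines, killer lectin receptors and early TCR genes have the lowest medians, and S100 and annexin genes the highest, at 0.33.

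Several lists held no gene past the limits. None of 15 TCR signalling, 15 interferon response, 14 MHC class I and 8 Gimap genes was higher or lower, with medians of 0.09, 0.15, 0.17 and 0.23. Over all 8170 genes, 2.33% were higher and 3.17% lower, so lists this short can hold none without differing from other genes. Of 14 S100 and annexin genes, Anxa1 was higher, and of 16 glycolysis genes the hexokinase Hk2 was lower. Ribosomal protein genes had a median of -0.10 over 96 genes. Although Mki67 was at 0 by the rule, 4 of 16 other cycling genes were higher, Ccnb2, Birc5, Ube2c and Mcm5. With classes set on thinned cells, their log2 ratios were 0.061, -0.18, 0.26 and -0.35.

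Within the Gzmk-positive class, many of these differences were graded. Cells were grouped by 0, 1, 2 to 4, 5 to 9 and 10 or more Gzmk UMIs, which gave 540, 336, 547, 239 and 36 cells with median depths of 3857, 3972.5, 4570, 5493 and 6218 UMIs. In that order, Gzmb stood at 18.9, 22.3, 29.4, 38.8 and 43.8 UMIs per 10000. Klrg1 stood at 0.141, 0.395, 0.466, 0.788 and 1.01, and Esm1 at 0.141, 0.276, 0.611, 0.945 and 1.10. Tox ran the other way, at 1.42, 0.947, 0.725, 0.510 and 0.176, and so did Pdcd1, at 7.92, 6.54, 5.78, 4.97 and 3.60. Penk stood at 2.92, 1.61, 0.414, 0.177 and 0.0878. Gzma did not follow at the low end: it was lower in cells with 1 Gzmk UMI, at 9.01, than in cells with 0, at 12.7, and stood at 20.3, 28.8 and 72.5 in the groups above. Eomes, at 0.552, 0.822, 0.929, 1.12 and 0.791, and Cd27, at 1.68, 2.08, 2.13, 1.83 and 1.89, had no such order over the whole range.

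**Figure D4:**
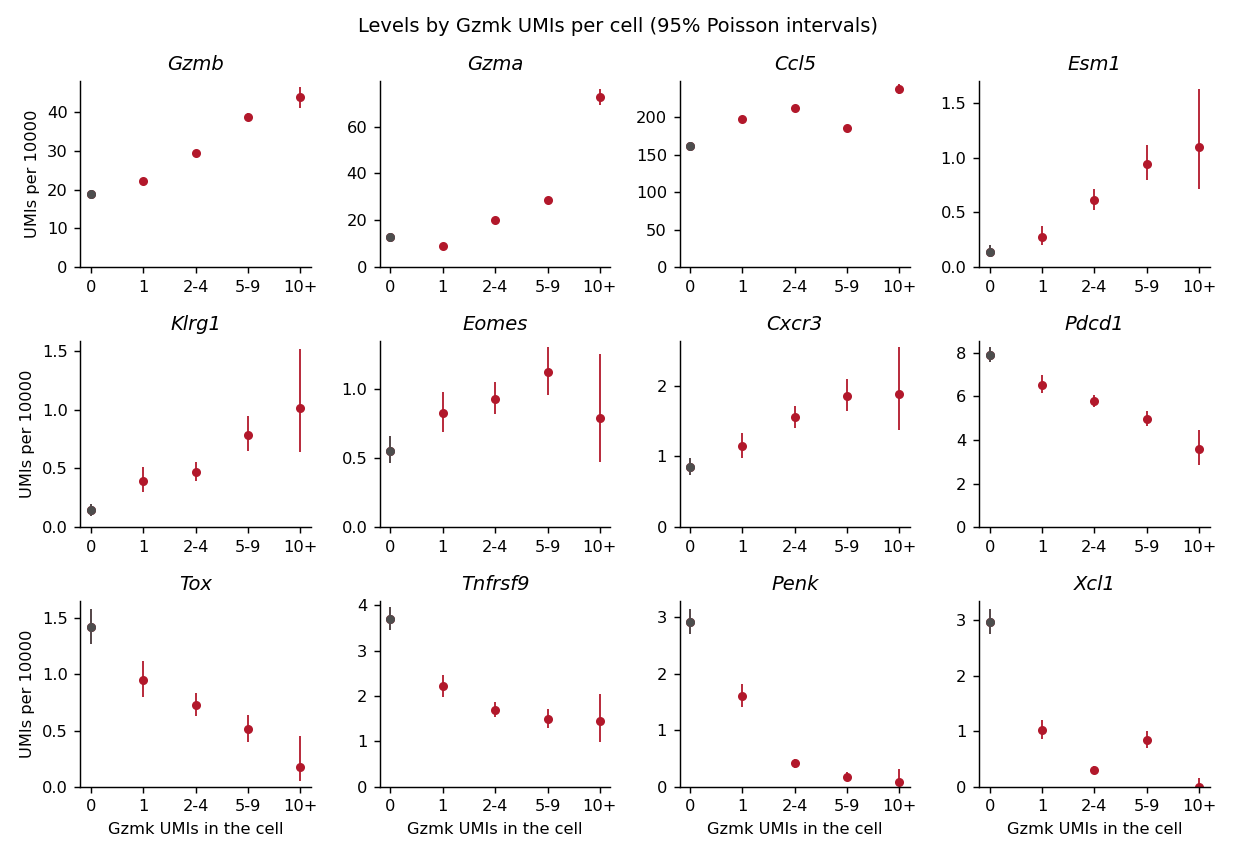
Levels of 12 genes in UMIs per 10000 (vertical axes, with 95% Poisson intervals) in cells with 0 (grey), 1, 2 to 4, 5 to 9 and 10 or more Gzmk UMIs (red; horizontal axes). Gzmb, Esm1, Klrg1 and Cxcr3 are higher, and Pdcd1, Tox and Tnfrsf9 lower, at each step up in Gzmk, while Ccl5, Eomes and Xcl1 are not ordered.

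The Gzmk-positive cells were not uniform. On thinned cells, those with a Gzma UMI had Gzmb in 91.5%, Prf1 in 37.7% and Cxcr3 in 20.8%, against 72.9%, 24.1% and 28.7% of those without Gzma. The 80 cells with a Tcf7 UMI had Il7r in 50%, against 29.7% of those without Tcf7, and Gzma in 21.2%, against 37.8%. The 37 cells with Itgae, the integrin CD103 of epithelium-resident cells, had Il7r in 54.1% and Ly6c2 in 21.6%, against 30.3% and 50.6% of those without Itgae. A Gzma UMI was found in 28.3% of cells with Eomes (21.7 to 35.7) and 38.1% of cells without it (35.0 to 41.2), intervals that overlap.

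Other CD8 subsets were set beside the Gzmk-positive cells. The 210 Gzmk-negative cells with Prf1 had Gzmb at 24.7 and Gzma at 19.4 UMIs per 10000. These compare with 30.5 and 21.5 in Gzmk-positive cells, and 18.9 and 12.7 in all Gzmk-negative cells. On thinned cells, Gzmb was found in 65.2% and Gzma in 21.9% of the 210. The shares were 79.7% and 36.6% in Gzmk-positive cells, and 57.2% and 18.5% in all Gzmk-negative cells. Klrg1 was 0.549 in Gzmk-positive cells and 0.162 in those 210, and Cxcr3 was 1.53 and 0.608. The 112 Gzmk-negative cells with Xcl1, Ccl1 or Penk had Ccl5 at 90.05, against 203 in Gzmk-positive cells. The 525 cycling Gzmk-positive CD8 cells had Gzma at 21.9, Gzmb at 27.1 and Klrg1 at 0.683, against 21.5, 30.5 and 0.549 in non-cycling ones. They had Ccl5 at 62.9, Il7r at 0.726 and Tcf7 at 0.140, against 203, 2.43 and 0.380 in non-cycling ones.

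Gzmk-positive cells were more often members of expanded clones. Clones were defined by CDR3 and segments in cells that had exactly 1 TRB and 1 or more TRA chains marked productive, which 619 Gzmk-positive (53.5%) and 231 Gzmk-negative cells (42.8%) had. These 850 cells formed 266 clones, 190 of them of a single cell. Of the Gzmk-positive cells, 81.7% (78.5 to 84.7) were in a clone of 2 or more cells, against 66.7% (60.2 to 72.7) of the Gzmk-negative cells. The 4 largest clones held 43.6% of Gzmk-positive and 22.9% of Gzmk-negative cells. Seen from the clones, 76.7% of cells in clones of 2 or more (73.2 to 79.8) and 59.5% of single-cell clones (52.1 to 66.5) were Gzmk-positive, and on thinned cells 57.9% and 44.2% had Gzmk, at median depths of 4719 and 4643.5 UMIs.

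Clone-mates of Gzmk-positive cells were more often Gzmk-positive than those of Gzmk-negative cells. For a Gzmk-positive cell, on average 81.1% of its non-cycling clone-mates were Gzmk-positive, and for a Gzmk-negative cell 62.2% were, over 506 and 154 cells. The cells of 1 clone are descended from 1 cell and are not replicates. Of the 76 clones with 2 or more cells, 40 held both states, 24 held Gzmk-positive cells only and 12 Gzmk-negative cells only. A cycling clone-mate was found for 73.8% of Gzmk-positive (70.2 to 77.3) and 56.7% of Gzmk-negative cells (50.1 to 63.2).

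The Gzmk-positive share varied between clones. Among 29 clones of 5 or more cells it ran from 30.8% to 100% with a median of 80%, and Gzmk-positive cells were the majority in 24. In clone 4, 37 of 39 cells were Gzmk-positive (94.9%, 82.7 to 99.4), and in clone 1, 145 of 180 were (80.6%, 74.0 to 86.1). In clone 7, 4 of 13 cells were (30.8%, 9.09 to 61.4), and in clone 14, 4 of 10 were (40%, 12.2 to 73.8). Clone 29, with other V segments, also stood at 40%, from 2 of 5 cells.

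**Figure D5:**
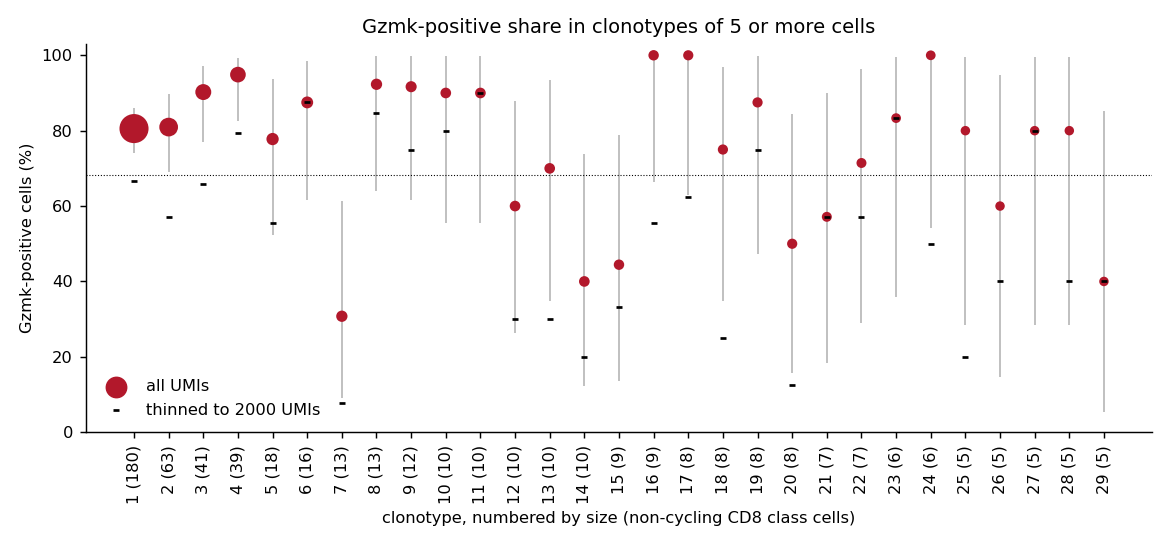
Share of Gzmk-positive cells in percent (vertical axis) in the 29 clones of 5 or more non-cycling CD8 cells, ordered by size with the number of cells in brackets (horizontal axis). Red points scale with clone size and carry 95% Clopper-Pearson intervals, black dashes give the share with a Gzmk UMI after thinning to 2000 UMIs, and the dotted line is the 68.2% of all non-cycling CD8 cells. Clones 7 and 14 lie lowest among clones of 10 or more cells.

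Clones 7 and 14, the lowest of the 14 clones with 10 or more cells, used the same V segments, TRBV5 and TRAV16N, and the sequences above show that their chains are identical for the first 15 (TRB) and 17 (TRA) bases and differ after that. Over the non-cycling CD8 cells with a V beta call, with or without a clone, and chosen for description after these 2 were seen, 18 of 46 cells with TRBV5 were Gzmk-positive (39.1%, 25.1 to 54.6), against 814 of 1123 with other V beta segments (72.5%). Without clones 7 and 14, 10 of 23 TRBV5 cells were (43.5%, 23.2 to 65.5). TRBV20, TRBV14 and TRBV17 were close to TRBV5, at 44.4%, 46.7% and 50% of 18, 15 and 26 cells. The remaining segments stood at 59.0% (TRBV12-2) or higher. The pooled 1123 cells included 289 with TRBV13-1, 211 with TRBV4 and 166 with TRBV12-1, at 77.2%, 77.7% and 83.1%. TRAV16N with another V beta segment went with a Gzmk-positive share of 71.2%, in 47 of 66 cells. Among these, clones 6 and 18 began with the same 17 TRA bases as clones 7 and 14, and were 87.5% and 75% Gzmk-positive. The pair TRBV5 with TRAV16N outside clones 7 and 14 was found in 3 cells, all of them Gzmk-positive (100%, 29.2 to 100).

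Clones 7 and 14 also stood apart from the 4 largest in Tox and Tnfrsf9. Tox stood at 4.56 UMIs per 10000 in clone 7 and 4.45 in clone 14, against 0.0818, 0.122, 0.152 and 0 in clones 1 to 4. Tnfrsf9 was at 5.40 and 5.88 in clones 7 and 14, against 0.514 to 2.17 in the 4 largest. Klrg1 had 0 UMIs in both small clones, with upper bounds of 0.623 and 0.657, and was 0.335 to 0.756 in the 4 largest, so no difference in it was detectable at this depth. The 4 largest clones were unlike one another: Gzma stood at 6.33 in clone 1 and 80.0 in clone 4, and Ccl5 at 97.4 in clone 3 and 222 in clone 2. Pdcd1 was 1.29 in clone 3 and 9.60 in clone 4, so a high Gzmk share went with both low and high Pdcd1.

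Within clone 1, which fixes the TCR, the granzymes still differed by Gzmk state. Gzmb stood at 34.1 UMIs per 10000 in its 145 Gzmk-positive cells and 11.4 in its 35 Gzmk-negative cells, a ratio of 3.002 (2.58 to 3.51). Gzma was at 7.35 in the Gzmk-positive and 1.96 in the Gzmk-negative cells (3.74, 2.62 to 5.53). Eomes was at 1.40 and 0.491 (2.85, 1.39 to 6.80). Klrg1 had 49 UMIs in the Gzmk-positive and 0 in the Gzmk-negative cells, and the interval of the ratio began at 3.01. Ly6c2 ran the other way, at 3.25 in Gzmk-positive and 4.72 in Gzmk-negative cells of this clone (0.688, 0.529 to 0.903), and Cxcr3 was at 0.955 (0.656 to 1.43). Pdcd1 and Il7r passed neither limit. Median depth was 4314 UMIs in the Gzmk-positive and 4244 in the Gzmk-negative cells of the clone.

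Some genes depended on how clones were weighted. Over the 40 clones that held both states, the log2 ratio was 0.91 for Gzmb, 2.14 for Klrg1 and -1.43 for Tox. That of Tnfrsf9 was -0.29, short of the limit for lower. With 1 cell per clone and class, Eomes was at 0.22, short of the limit for higher, and Gzma at 1.58. When the classes were set on thinned cells, Gzmb was at 0.40 and Klrg1 at 1.02, against 0.69 and 1.96 unthinned, and Nmral1 was at 0.14. Gzmb and Nmral1 then fell short of the 1.5-fold limit.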

How the data were processed

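The authors deposited a matrix of UMI counts by gene and barcode, in whole numbers without normalization. Cell Ranger and the mm10 build are named in the submitters' processing notes; the Cell Ranger version, the TCR reference and any use of strand are not given in the sources used here. Chain, segments, CDR3 and productive state of each TCR contig are the authors' deposited annotation, and 5133 kept cells had a contig.

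Of 5348 barcodes with 32772424 UMIs, 5333 with at least 500 genes and at most 10% mitochondrial UMIs were kept, with 2549 to 39138 UMIs each. The class rule, the members, the gene lists and the alternatives were chosen with earlier results of these data known. Doublets were not removed; leaving out barcodes with 2 or more productive TRB chains or 2 or more genes of another cell type's list was an alternative.

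UMIs were summed over each class and divided by its total. For ratios, 95% intervals were exact conditional binomial ones; those of levels were exact Poisson and those of shares Clopper-Pearson. UMIs within a cell are not independent, so these intervals are too narrow for a comparison of cell states, and none covers differences between mice. Values of a few genes are left out of this text. Counts of higher and lower genes were taken among genes with a sum of 50 or more UMIs, without the class-setting genes and without segments of the TCR and of antibodies. Named genes were the top 12 at each end by the interval bound nearest 1, without predicted models, and members of the 29 gene lists by UMIs or bound. Clone 1 by Gzmk state and the TRBV5 split were chosen after values were seen. Ratios and their intervals were run on simulated independent Poisson counts. The simulation held no differences between cells or clones, so it cannot show how the intervals fare on these data. Computation used scipy 1.17.1, numpy 2.4.6 and pandas 2.3.3 under Python 3.11.15, and figures matplotlib 3.10.9.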

Additional observations from a re-analysis of the deposited data

How the results depend on the processing

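No paired analysis was possible because the pool is 1 sample with no replicates. The share of non-cycling CD8 cells that were Gzmk-positive, 68.2%, was 48.4% when at least 2 Gzmk UMIs were required and 48.6% with classes set on thinned cells. With 1 cell per clone and class, 57.8% of the kept cells were Gzmk-positive, which is not an estimate of that share. Each of the 40 clones with both states then gives 1 cell to each class, and only the 850 cells with a clone are used. Clone-mates of Gzmk-positive cells were Gzmk-positive in 67.7% with at least 2 UMIs and in 61.5% with classes on thinned cells, against 51.0% and 49.7% for clone-mates of Gzmk-negative cells. The 190 higher genes became 113 with classes on thinned cells, and the 259 lower genes became 112 in clones that held both states; the cause was not tested.

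Of the named genes, these turned their direction (log2 ratio). With classes on thinned cells, Birc5 was at -0.18, Mcm5 at -0.35 and Zfp683 at -0.11. In clones that held both states, Ccr7 was at 0.085 and H2-Eb1 at 0.29. H2-Eb1 was at 0.62 where both Cd8a and Cd8b1 were required. Without doublet and other-cell barcodes, H2-Eb1 was at 2.05 and Il1b at 1.24. With 1 cell per clone and class, which kept 177 Gzmk-positive and 129 Gzmk-negative cells, Ccrl2 was at 0.31, Cd74 at 1.62, Fcer1g at 2.02, Gzmf at 0.076, H2-Ab1 at 1.48, H2-Eb1 at 1.07, Ier3 at -0.15, Il10 at -0.16, Il1b at 2.16 and Tyrobp at 1.75. In the other 8 alternatives, 0 of the called named genes turned. Turning covers direction only. Fewer named genes were counted as the same, neither moved nor turned. They were 141 of 284 with 1 cell per clone and class, 160 of 284 in clones that held both states, and 182 of 286 with classes on thinned cells.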

Other observations

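Gzmk was also found in CD4 class cells, in 16.9% of the 1420 without Mki67 UMIs (12.6% thinned), a share below that of the barcodes with macrophage genes (36.8%, 20.8% thinned) and above that of the CD4 cells with Th17 genes (3.66%, 2.44% thinned). Of the 106 barcodes with macrophage genes, 39 were in the CD8 class, so their share is not a measure of free RNA alone. The 240 Gzmk-positive CD4 cells had Gzmk at 6.87 UMIs per 10000, near the 6.37 of the Gzmk-positive CD8 cells. Esm1 stood at 1.70 in Gzmk-positive CD4 cells and 0.114 in the 1180 Gzmk-negative CD4 cells, and Eomes at 1.44 and 0.0704. Ccl5 was at 125 and 18.3, and Tigit at 10.01 and 5.32. Gzma did not follow: it was at 4.41 in Gzmk-positive and 4.95 in Gzmk-negative CD4 cells, and Prf1 was at 0.312 and 0.113. Median depth was 4352.5 and 4336 UMIs in these classes.

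The TRB CDR3 had a median length of 42 bases in both Gzmk-positive and Gzmk-negative CD8 cells, over 185 and 177 rearrangements. Among 14 V beta segments with 20 or more cells, the Gzmk-positive share ran from 39.1% for TRBV5 to 85% for TRBV13-2, with a median of 65.1%.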
